A study of Homo sapiens with 6 samples.

Results

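The TRIM genes encode a large family of ubiquitin ligases, and 57 of them were followed here in HCT116 cells treated with irinotecan. Members were chosen by annotation and name: rows of the deposited gene table that are protein coding and whose gene name begins with TRIM and a digit. They were 57 of 16665 protein-coding genes and of 30560 genes in all. HCT116 is an established human colorectal carcinoma line with wild-type genotype in the labels. The CPT-11 group had 3 samples given irinotecan (CPT-11), a camptothecin prodrug whose active metabolite traps topoisomerase I on DNA, at 10 µM for 48 hours. The DMSO group had 3 samples that received the vehicle DMSO. The series text speaks of duplicates, whereas the labels give 3 samples per group, all of which were used.

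TRIM proteins share an N-terminal arrangement of a RING finger, which recruits the ubiquitin-conjugating enzyme, B-box zinc fingers and a coiled coil through which they form dimers. The C-terminal part differs between members and sets what each one binds, and a PRY-SPRY domain is the most common form. Many members are induced by interferon and act on viruses or on the pathways that sense viral nucleic acids, and others bind, modify or are transcribed by the tumour suppressor p53. A row also needed reads, since each gene of the table had at least 2 over the 6 libraries. TRIM22 was selected on its measured response in this same contrast. Its values are therefore given as a description without a p-value, and the counts of changed members below describe the family and test nothing about it.

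Libraries held 15398464 to 18031195 reads on genes. Mitochondrial genes took 9.70% to 10.9% of reads in the CPT-11 libraries and 6.84% to 7.45% in the DMSO libraries. The effect of scaling the libraries without those genes is given where it changes the call of a tested member. Libraries numbered 1 stood apart from the other libraries of their group, with a chi-square over genes, per degree of freedom, of 8.81 and 11.9 against 3.33 between the other CPT-11 libraries, and of 12.7 and 12.2 against 4.11 between the other DMSO libraries. Of 8 colorectal epithelial markers, 5 averaged 10 normalized counts or more, VIL1 and LGALS4 were below that and CEACAM5 was not analysed here. Summed, the epithelial markers held 76575 to 82499 normalized counts in the CPT-11 libraries and 42225 to 45548 in the DMSO libraries. Most of these counts were KRT8 (CPT-11 mean 53996, DMSO mean 28235) and KRT18 (19197 and 9527). In the fit described below 4 of the 5 were called higher, and EPCAM (3744 and 3871) was not called. None of the 4 leukocyte markers analysed, PTPRC among them, reached a mean of 10, with sums of 4.21 to 7.94 in the CPT-11 libraries and 8 to 15.1 in the DMSO libraries. Of 4 fibroblast and endothelial markers, COL1A1 and VWF did, with sums of 958 to 1271 in the CPT-11 libraries and 554 to 672 in the DMSO libraries. COL1A1 made up most of these sums (CPT-11 mean 1068, DMSO mean 592), while VWF averaged 19.8 and 17.9. The part of these shifts in the results below was not tested. Since the labels name no separate cultures, p-values here reflect the scatter among the 6 samples alone, and that scatter may be technical. In bulk RNA, fewer cells of a type and less RNA per cell cannot be told apart.

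The interferon-stimulated response element, to which interferon-activated transcription factors bind, has a core made of GAAA, any 2 bases and GAAA again. Both strands of the 250 bases upstream of the gene start in RefSeq (GRCh38.p14) were searched, and the window was available for 43 of 57 members; TRIM22 was among the 14 not searched. The core lay upstream of 8 of these 43, against 3.07% of 27305 promoters. These 8 were TRIM2, TRIM5, TRIM14, TRIM16, TRIM26, TRIM34, TRIM44 and TRIM69, and 5 of the 8 are on the interferon-inducible list used below. TRIM21, TRIM25, TRIM31, TRIM38 and TRIM56, on the same list, were searched and had no core. Only the stretches of the 5 with a core are shown. Capitals mark the core on either strand and, in TRIM26, a pair of overlapping cores. Where the longer stretch touched an annotated exon, only 10 bases on each side are shown. Even so, the 30 bases shown for TRIM5 and for TRIM69 lie wholly within annotated exons. The stretches of TRIM5, TRIM34 and TRIM69 also lie inside the annotated spans of the gene rows counted here.
TRIM5 (chr11:5685082-5685111, minus strand): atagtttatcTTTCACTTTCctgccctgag
TRIM34 (chr11:5624901-5624930, plus strand): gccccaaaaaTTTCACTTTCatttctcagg
TRIM14 (chr9:98119223-98119278, minus strand): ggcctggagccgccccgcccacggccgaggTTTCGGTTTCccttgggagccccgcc
TRIM26 (chr6:30213555-30213630, minus strand): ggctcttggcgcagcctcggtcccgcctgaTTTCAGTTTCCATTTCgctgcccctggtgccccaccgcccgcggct
TRIM69 (chr15:44736456-44736485, plus strand): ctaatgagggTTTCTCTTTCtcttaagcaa
TRIM5 and TRIM34 carried the same letters in the core, while the flanks differed. A p53 half-site consensus was found upstream of 2 of the 43, TRIM10 and TRIM71, against 5.53% of all promoters. A match describes these letters only, and the windows without one say nothing about a factor.

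After CPT-11, 23 TRIM genes rose and 10 fell, and TRIM22 and TRIM29 were 9.44-fold and 8.14-fold higher. Values are normalized counts, in which each library's reads were divided by its own size factor. Genes averaging 10 or more in the 6 samples entered the fit, and 51 of the 57 members did. TRIM67, counted among the 23, was 7.64-fold higher. It averaged 2.32 in the DMSO group and entered through the CPT-11 group, so a fall could not have been seen. The test was limma on log2(normalized count + 1) over 16239 genes, with Benjamini-Hochberg adjustment over all of them and a threshold of 0.05. By that rule 49.4% of tested genes changed, 24.3% higher and 25.1% lower, and of tested protein-coding genes 54.0%; the 33 of 51 members called are to be read beside these shares. The median log2 fold change was 0.33 over the 51 members and 0.01 over all tested genes. Groups did not overlap for 33 members, against 56.6% of all tested genes. Of 13215 tested protein-coding genes, 3457 rose and 3675 fell, and groups did not overlap for 7999. The authors' deposited table lists 34 of the 57 members at an adjusted p below 0.05, against 24.5% of its 30560 genes. Those 30560 include genes that are not protein coding and many too low to be tested here, so the 2 shares have unlike bases. Of the 34 members, 33 are the members called here, in the same direction, and the other is TRIM55.

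**Figure D1:**
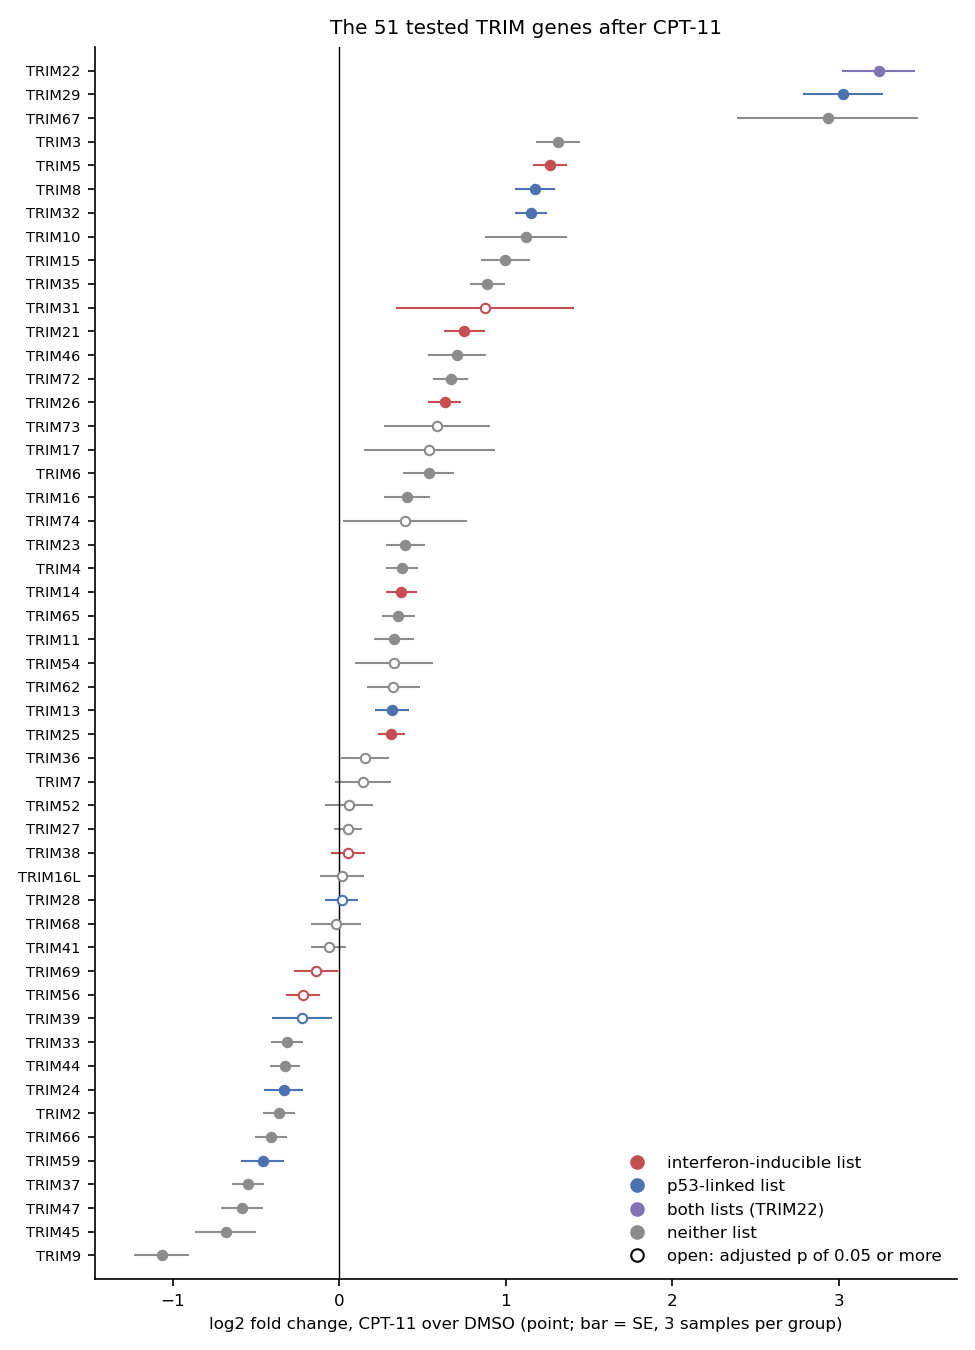
Log2 fold change of CPT-11 over DMSO (x axis) for each of the 51 tested TRIM genes (y axis); points are fitted values, bars are SE from 3 samples per group, and open points did not pass. TRIM22, TRIM29 and TRIM67 lie near 3, TRIM9 is the lowest at -1.07, and colours show that the named lists spread over most of the range.

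TRIM22, an antiviral ubiquitin ligase whose transcription is known to respond to both interferon and p53 (chromosome 11, 5689689 to 5737089 on GRCh38), had the highest limma fold change of the family; in the authors' deposited table TRIM67 is above it, with log2 fold changes of 3.34 and 3.28. It had 229, 332 and 235 normalized counts in CPT-11 samples 1, 2 and 3, against 36.0, 23.5 and 22.6 in DMSO samples 1, 2 and 3. Every CPT-11 sample was above every DMSO sample, and the lowest CPT-11 value was 6.37 times the highest DMSO value. CPT-11 sample 2 stood above the other CPT-11 samples and DMSO sample 1 above the other DMSO samples. The reads behind these values were 811 and 82 in all, and the fitted log2 fold change was 3.24 (SE 0.22). Of its exonic bases 10.7% are shared with OR56B1, and that part of its count is uncertain. TRIM22 lies within the annotated span of TRIM5, which is on the opposite strand.

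The interferon-inducible list held 11 members, of which 10 were tested. Of these, 6 rose, 0 fell and 4 did not pass, with a median log2 fold change of 0.50, or 0.37 over 9 members without TRIM22. Among all tested genes, 24.3% rose and 25.1% fell. TRIM5, which binds incoming retroviral capsids (chromosome 11, 5663557 to 5938619), had 1063, 1052 and 1073 normalized counts in the CPT-11 samples and 478, 407 and 441 in the DMSO samples. Its CPT-11 values were close together, and the log2 fold change was 1.27 (SE 0.10, limma adjusted p = 1.87e-08). TRIM21, a cytosolic receptor for antibodies, had 379, 352 and 339 normalized counts after CPT-11 and 215, 215 and 204 with DMSO (log2 fold change 0.75, SE 0.12, limma adjusted p = 7.23e-05). TRIM26, a ligase that acts on interferon-beta induction, had 1436, 1334 and 1215 against 810.0, 909 and 849 (log2 fold change 0.63, SE 0.10). In none of these genes did the groups overlap.

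The other members of that list that rose were TRIM14, an adaptor of antiviral signalling at mitochondria, and TRIM25, the ligase that modifies the RNA sensor RIG-I. TRIM14 had 1315, 1326 and 1257 normalized counts in the CPT-11 samples and 969, 1085 and 962 in the DMSO samples (log2 fold change 0.37, SE 0.09, limma adjusted p = 0.00309). TRIM25 had 4672, 4364 and 4455 against 3503, 3795 and 3577 (log2 fold change 0.31, SE 0.08, limma adjusted p = 0.00438). Both changes were below 1.5-fold. Members of the list that did not pass lay on both sides of 0. TRIM56, which promotes signalling by the DNA sensor adaptor STING, had 1037, 907 and 902 normalized counts after CPT-11 and 1015, 1089 and 1205 with DMSO (log2 fold change -0.22, limma adjusted p = 0.0865). The groups of TRIM56 overlapped through the libraries numbered 1. It had a log2 fold change of -0.28 (adjusted p = 0.0306) without CPT-11 sample 1, of -0.28 (adjusted p = 0.0296) without DMSO sample 1 and of -0.34 (adjusted p = 0.00123) without both.

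TRIM38, a restraint on Toll-like receptor signalling, had 947, 1056 and 1149 normalized counts in the CPT-11 samples and 1098, 981 and 961 in the DMSO samples, with overlapping groups. TRIM69, an interferon-induced inhibitor of some RNA viruses, had 255, 260.4 and 219.8 against 286, 245 and 280.1. The log2 fold changes of this pair were 0.05 (limma adjusted p = 0.71) and -0.14 (limma adjusted p = 0.397). TRIM31, which acts on the mitochondrial adaptor MAVS, was barely measured, with 15.9, 8.11 and 14.7 normalized counts after CPT-11 and 11, 7.49 and 2.83 with DMSO, and it entered the fit through the CPT-11 group (log2 fold change 0.88, SE 0.53). TRIM34, the neighbour of TRIM5, had 5 reads over the CPT-11 libraries and 2 over the DMSO libraries and was not tested. It shares 83% of its exonic bases with the read-through gene TRIM6-TRIM34, and the sources used here do not give how shared reads were assigned. Of the 5 interferon-list members with the response element core shown above, TRIM5, TRIM14 and TRIM26 rose, TRIM69 did not pass and TRIM34 was not tested. Of the 3 members with the core that are on neither list, TRIM16 rose and TRIM2 and TRIM44 fell, which makes 4 higher, 2 lower and 1 not passing of 7 tested.

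The p53-linked list held 9 members, all tested, of which 5 rose, 2 fell and 2 did not pass. For all tested genes the shares were 24.3% higher and 25.1% lower. The median log2 fold change of the list was 0.32, or 0.16 over 8 members without TRIM22. TRIM29, a RING-less member that binds p53 and is at home in stratified epithelia (chromosome 11, 120111275 to 120185529), had 127, 139.8 and 133 normalized counts in the CPT-11 samples and 12.0, 17.1 and 17.9 in the DMSO samples. Its groups were far apart, and the log2 fold change of 3.03 (SE 0.24, limma adjusted p = 1.73e-08) was next to that of TRIM22 in the limma fit, while in the authors' deposited table TRIM67 (3.34) is above TRIM29 (3.08). TRIM8, which stabilises p53 (chromosome 10, 102642310 to 102660680), had 2781, 2813 and 2531 normalized counts after CPT-11 and 958, 1452 and 1232 with DMSO. DMSO sample 1 was the lowest, the groups did not overlap, and the log2 fold change was 1.18 (SE 0.12, limma adjusted p = 3.44e-07). TRIM32, a ligase with NHL repeats that is known both as a p53 target and as a ligase for p53 (chromosome 9, 116687302 to 116701300), had 1383, 1424 and 1524 against 650.0, 633 and 665, a log2 fold change of 1.15 (SE 0.09, limma adjusted p = 2.1e-08).

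TRIM13, a membrane-anchored ligase that acts on MDM2, the main ligase of p53, had 786, 930.1 and 847 normalized counts in the CPT-11 samples and 665, 704 and 684 in the DMSO samples (log2 fold change 0.32, limma adjusted p = 0.0153). Its groups did not overlap, but without CPT-11 sample 2 the log2 fold change was 0.25 with an adjusted p of 0.104. The members of the list that fell were TRIM24 and TRIM59, both of which are known to lower p53 protein. TRIM24 had 435, 500.5 and 497 normalized counts after CPT-11 and 634, 659 and 521 with DMSO (log2 fold change -0.34, limma adjusted p = 0.0257). The call of TRIM24 was lost without CPT-11 sample 1 (adjusted p = 0.0794), without DMSO sample 2 (adjusted p = 0.122) and with libraries scaled without mitochondrial genes (adjusted p = 0.0758). TRIM59 had 361, 472 and 430.1 against 616, 621 and 502 (log2 fold change -0.46, limma adjusted p = 0.0058), and 34.3% of its exonic bases lie in other genes, mainly SMC4.

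TRIM28, the co-repressor of KRAB zinc finger proteins and a partner of MDM2, did not pass. It had 11158, 10862 and 10112 normalized counts in the CPT-11 samples and 9294, 12377 and 10357 in the DMSO samples, with the DMSO values spread wider than the CPT-11 values and enclosing them. Its log2 fold change was 0.01 (SE 0.10), and took the opposite sign, at -0.08, without DMSO sample 1. TRIM39, a ligase reported to act on p53, had 85.5, 102 and 85.2 against 118, 101 and 101 (log2 fold change -0.23, limma adjusted p = 0.31), and 41.7% of its exonic bases lie in other genes.

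**Figure D2:**
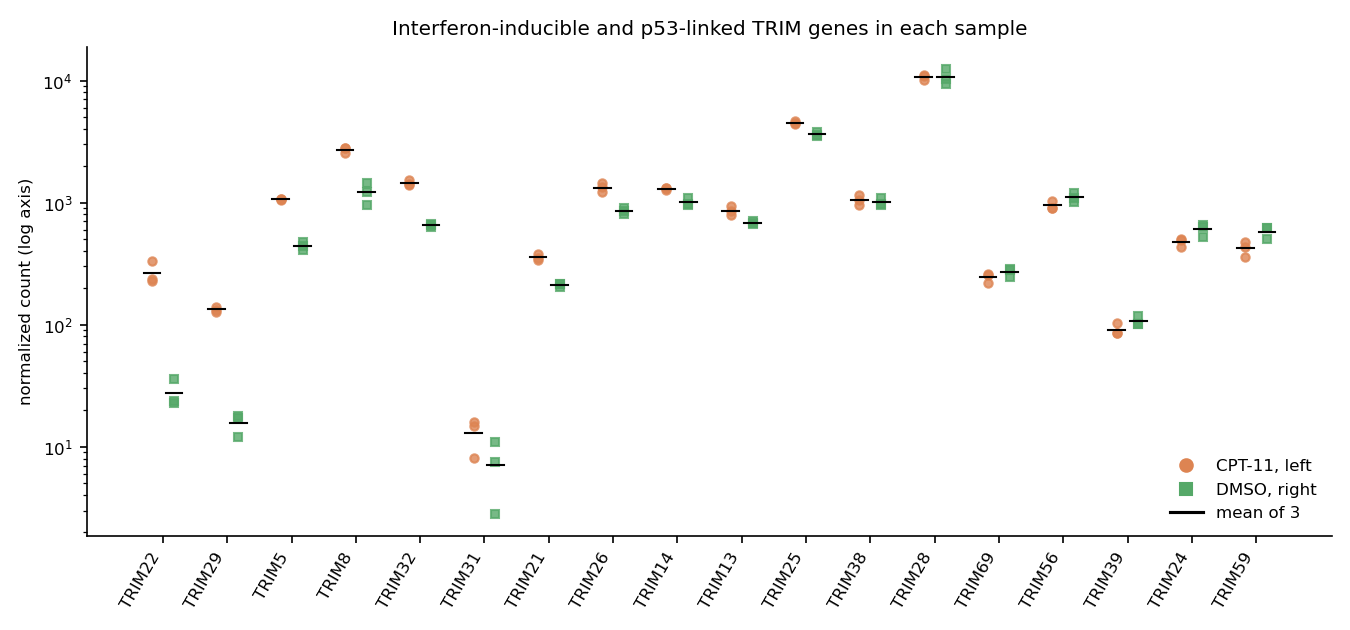
Normalized counts (y axis, log scale) of the 18 tested members of the interferon-inducible and p53-linked lists, ordered by fold change; each point is 1 sample, CPT-11 left and DMSO right, and lines are means of 3. The groups are widest apart for TRIM22 and TRIM29, and overlap in 6 genes, among them TRIM28 and TRIM38.

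In the limma fit of all 6 samples at a filter of 10, the linked members pooled over both lists had nearly the same median as the other members. The shares of all tested genes were 24.3% higher and 25.1% lower. Over the 18 tested genes on either list, 10 rose, 2 fell and 6 did not pass, with a median log2 fold change of 0.34. Over the 33 tested genes on neither list, 13 rose, 8 fell and 12 did not pass, with a median of 0.33. The count of genes that rose at least 2-fold was 5 of 18 on the lists and 3 of 33 off them, against 6.56% of all tested genes, and the count that fell at least 2-fold was 0 of 18 and 1 of 33, against 7.43%. The 5 include TRIM22, selected on its response, and the 3 include TRIM67, which entered through the CPT-11 group, so nothing is read from these counts. The median of the other members was 0.18 without DMSO sample 1, 0.12 without both libraries numbered 1 and 0.15 when the filter was raised to a mean of 50. The pooled median of the linked members was not taken in these settings.

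Among members on neither list, TRIM67, TRIM3 and TRIM10 rose at least 2-fold. TRIM67, a neuronal ligase, had 29.1, 15.2 and 26.3 normalized counts after CPT-11 and 4, 1.07 and 1.89 with DMSO, from 73 and 7 reads. It entered the fit through the CPT-11 group, so a fall could not have been seen, and its log2 fold change of 2.93 (SE 0.54) has the largest error of the family. TRIM3, an NHL-repeat ligase best known from neurons (chromosome 11, 6448613 to 6474459), had 745, 577 and 683 against 230.0, 271 and 306 (log2 fold change 1.31, SE 0.13, limma adjusted p = 2.93e-07). TRIM10, known from red cell development in mouse, had 62.6, 76.0 and 86.2 against 39.0, 25.7 and 37.7 (log2 fold change 1.12, SE 0.25, limma adjusted p = 0.00101). The groups did not overlap in these 3 genes.

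TRIM9, a brain-enriched ligase of axon guidance (chromosome 14, 50975262 to 51096061), was the member with the lowest fold change. It had 88.2, 126 and 98.9 normalized counts in the CPT-11 samples and 228, 214 and 210.3 in the DMSO samples (log2 fold change -1.07, SE 0.16, limma adjusted p = 3.35e-05). TRIM45, a filamin-domain member, had 81.1, 61.8 and 72.6 against 111, 118 and 117 (log2 fold change -0.68, SE 0.18, limma adjusted p = 0.00489). TRIM47 had 593, 469 and 429 against 681, 826 and 720.4 (log2 fold change -0.59, SE 0.13), but 51.5% of its exonic bases overlap a gene on the opposite strand, and the sources used here do not give whether counting used strand.

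TRIM37, a ligase that restrains centriole assembly (chromosome 17, 58982638 to 59106921), had 1295, 1479 and 1450.2 normalized counts after CPT-11 and 2290.0, 1931 and 1967 with DMSO (log2 fold change -0.55, SE 0.10, limma adjusted p = 0.00014). TRIM66, a chromatin reader of the TIF1 group, had 754, 734 and 720.4 against 977, 979 and 981, with DMSO values within a few counts of each other (log2 fold change -0.41, SE 0.09). TRIM2, an NHL-repeat ligase like TRIM3 and TRIM32, had 1252, 1426 and 1509 against 1855, 1736 and 1778 (log2 fold change -0.36, SE 0.09). TRIM33, a TIF1-group ligase for SMAD4, had 1412, 1685 and 1656 normalized counts after CPT-11 and 2055, 1885 and 1960.4 with DMSO (log2 fold change -0.32, SE 0.09). TRIM44, a RING-less member, had 1083, 1221 and 1136 against 1450.0, 1461 and 1396 (log2 fold change -0.33, SE 0.09). All 10 members that fell had groups that did not overlap.

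By domain class, the chromatin readers with a PHD finger and a bromodomain were the class without a raised member among the 7 classes that held more than 1 tested gene. Of these 4, TRIM24, TRIM33 and TRIM66 fell and TRIM28 did not pass (median log2 fold change -0.33). In the PRY-SPRY class, 13 of 23 tested members rose and 1 fell, with a median of 0.35. Members without a RING finger were put in a class of their own, whatever their C-terminal part. Of 6 members with no named C-terminal domain, TRIM8 rose and the rest did not pass (median 0.49). The NHL-repeat ligases went both ways, with TRIM3 and TRIM32 higher and TRIM2 lower. Of the 4 tested members with a COS box, which binds microtubules, and a fibronectin repeat, TRIM67 and TRIM46 rose, TRIM9 fell and TRIM36 did not pass. Of 5 members of the small classes, TRIM13 and TRIM23 rose and TRIM37, TRIM45 and TRIM59 fell. Of 5 members without a RING finger, TRIM14, TRIM16 and TRIM29 rose, TRIM44 fell and TRIM16L did not pass. Of all tested genes, 24.3% rose and 25.1% fell. The classes also differed in genomic span, with a median of 17.3 kb for PRY-SPRY and 94.5 kb for PHD finger and bromodomain members, and fold change moved with span, as described below. With the trend on span taken out, TRIM24 had -0.054, TRIM33 -0.075 and TRIM66 -0.34. No class was tested against another.

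**Figure D3:**
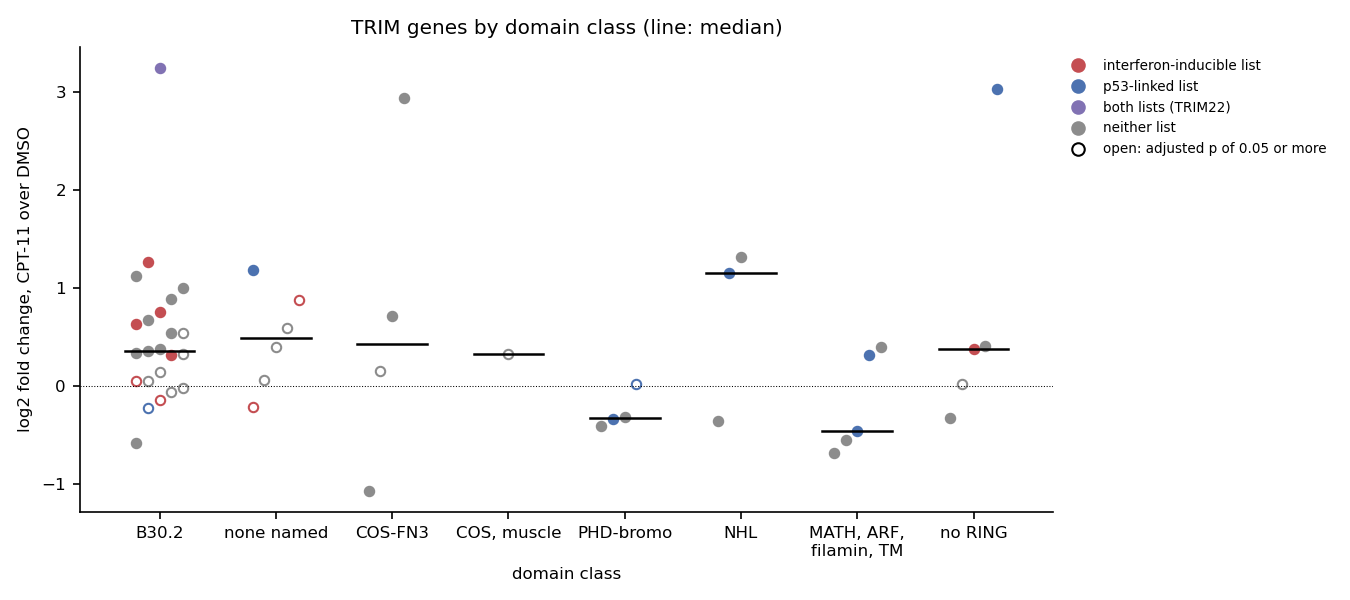
Log2 fold change of CPT-11 over DMSO (y axis) of the 51 tested TRIM genes by domain class (x axis); each point is a gene, lines are class medians and open points did not pass. The PHD finger and bromodomain class lies at or below 0.01, and the PRY-SPRY class runs up to TRIM22 at 3.24.

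The remaining members that rose were TRIM4, TRIM6, TRIM11, TRIM15, TRIM16, TRIM23, TRIM35, TRIM46, TRIM65 and TRIM72, with log2 fold changes of 0.33 to 0.998. TRIM15, a focal adhesion protein, had the highest of these, at 339, 310.0 and 299 normalized counts in the CPT-11 samples and 187, 152 and 138 in the DMSO samples. The lowest was that of TRIM11, with 1003, 889 and 858 against 600.0, 813 and 789, where DMSO sample 1 was far below the other DMSO samples. TRIM35 had 1122, 1007 and 917 normalized counts after CPT-11 and 518, 592 and 531 with DMSO (log2 fold change 0.89, SE 0.11). TRIM72, known for membrane repair in muscle, had 1665, 1609.9 and 1478 against 859, 1073 and 1068 (log2 fold change 0.67, SE 0.10). In both genes every CPT-11 sample was above every DMSO sample. TRIM46, which bundles microtubules in axons, had 208, 219.8 and 194 normalized counts after CPT-11 and 96.0, 138 and 152 with DMSO (log2 fold change 0.71, SE 0.17). TRIM4 had 972, 1082 and 999 against 823, 769 and 757 (log2 fold change 0.38, SE 0.10). TRIM11 had an adjusted p of 0.0296 in the limma fit, 0.15 without DMSO sample 1, 0.0922 without CPT-11 sample 1 and 0.0613 without CPT-11 sample 2. TRIM16, which responds to damaged lysosomes, had a limma adjusted p of 0.0219, but 0.0616 without CPT-11 sample 1, 0.102 without CPT-11 sample 3 and 0.101 without DMSO sample 2. TRIM23, which carries an ARF domain, had 0.00933 in the fit, 0.0642 without CPT-11 sample 2 and 0.0579 without DMSO sample 3. TRIM6 and TRIM16 share 29.3% and 28.7% of their exonic bases with other genes, and TRIM16 is close in sequence to TRIM16L.

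Members that did not pass off the lists were TRIM7, TRIM16L, TRIM17, TRIM27, TRIM36, TRIM41, TRIM52, TRIM54, TRIM62, TRIM68, TRIM73 and TRIM74, with log2 fold changes of -0.06 to 0.59. TRIM73 and TRIM74 are near-identical copies on chromosome 7, so the split of reads between them is uncertain. TRIM73 passed without CPT-11 sample 3 (log2 fold change 0.90, adjusted p = 0.0282), and TRIM62 without DMSO sample 3 (log2 fold change 0.48, adjusted p = 0.0289) and with libraries scaled without mitochondrial genes (adjusted p = 0.0489). TRIM36 (log2 fold change 0.34, adjusted p = 0.0296) and TRIM41 (log2 fold change -0.21, adjusted p = 0.0299) passed without both libraries numbered 1. The 6 members under the filter were TRIM34, TRIM40, TRIM43B, TRIM50, TRIM55 and TRIM71. TRIM55, a muscle ligase, was just outside it with 50 reads over the CPT-11 libraries and 12 over the DMSO libraries, and TRIM31 just inside with 40 and 21. The other untested members had 12 reads or fewer in a group.

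Per kilobase of exon, TRIM28 stood far above the rest of the family. It averaged 2655 ± 134 normalized counts per kilobase in CPT-11 samples and 2647 ± 388 in DMSO samples (SD, n = 3 each). Averaged over all 6 samples, TRIM25 and TRIM65 came next. TRIM25 had 473 ± 16.7 in CPT-11 samples and 382 ± 16.0 in DMSO samples, and TRIM65, a ligase of the RNA sensor MDA5, had 464 ± 53.1 in CPT-11 samples and 362 ± 28.6 in DMSO samples (SD, n = 3 each). TRIM37, with 257 ± 18.0 in CPT-11 samples and 376 ± 36.1 in DMSO samples, was above TRIM65 in the DMSO group, by less than its SD. The difference between TRIM25 and TRIM65 was smaller than the SD of TRIM65 in both groups, but in DMSO samples larger than the SD of TRIM25. TRIM65 itself had 2063, 1797 and 1649 normalized counts after CPT-11 and 1310.0, 1532 and 1457 with DMSO (log2 fold change 0.35, SE 0.10, limma adjusted p = 0.00751). Summed over all 57 members, CPT-11 libraries held 47467 to 49616 normalized counts and DMSO libraries 41139 to 45712, and TRIM28 made up 21.3% to 22.5% and 22.6% to 27.1% of these sums.

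Members with long genomic spans made up most of those that fell. Of 14 tested members spanning 50 kb or more, 5 rose and 8 fell (median log2 fold change -0.32). Of 37 members under 50 kb, 18 rose and 2 fell, with a median of 0.37. The same split over all tested protein-coding genes gave 737 higher and 2147 lower of 4903 with a median of -0.23 at 50 kb or more, and 2720 higher and 1528 lower of 8312 with a median of 0.12 below. The members under 50 kb that fell were TRIM45 and TRIM47, and the long members that rose were TRIM5, TRIM16, TRIM25, TRIM29 and TRIM67. TRIM5 has the longest annotated span of the family, 275 kb. Its RefSeq start lies inside that span, next to the searched window at 5685075 to 5685324. Its place among the long members, and its value below, thus depend on the annotation. With the trend of fold change on span over protein-coding genes taken out, TRIM22 had 3.22, TRIM5 1.92 and TRIM9 -0.82. TRIM2 and TRIM44 then lay on the other side of 0, at 0.10 and 0.03. On that scale the interferon-inducible median was 0.47, the p53-linked median 0.20 (both lists with TRIM22) and that of the other members 0.19.

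**Figure D4:**
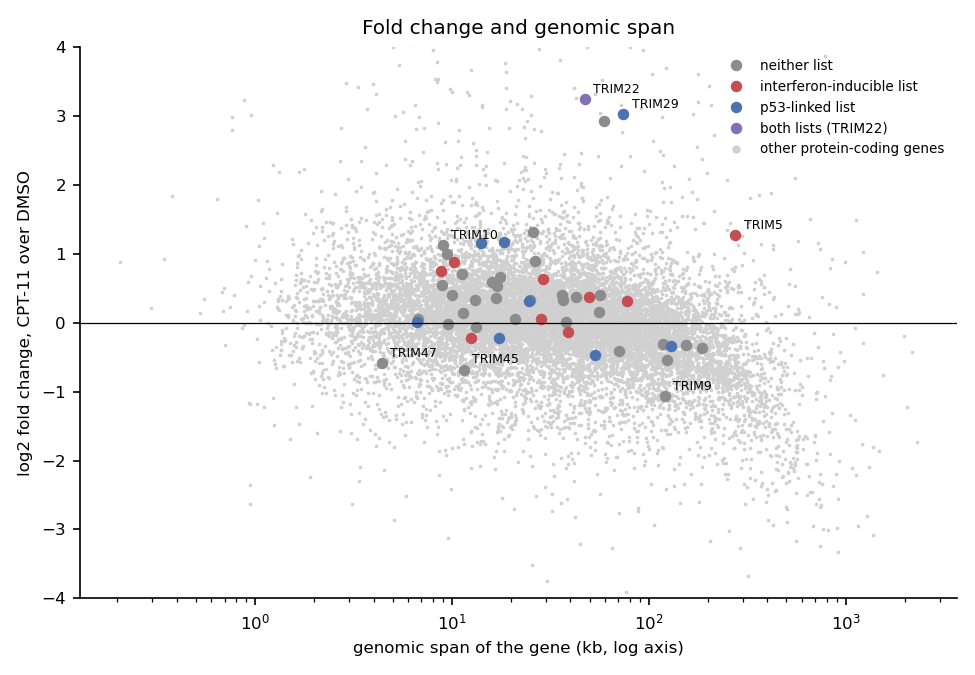
Log2 fold change of CPT-11 over DMSO (y axis) against genomic span in kb (x axis, log scale) for the 51 tested TRIM genes in colour and other tested protein-coding genes in grey, of which 34 lie beyond the plotted range of -4 to 4. TRIM5, at its annotated span of 275 kb and a log2 fold change of 1.27, lies above most genes of that span.

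The members on chromosome 11p15 and on chromosome 6p did not all change alike. Among all tested genes, 24.3% rose and 25.1% fell. On 11p15, TRIM3, TRIM5, TRIM6, TRIM21 and TRIM22 rose, TRIM66 fell, TRIM68 did not pass and TRIM34 was not tested. TRIM66, which starts at 8612037, lies apart from the adjacent TRIM5, TRIM6, TRIM22 and TRIM34 (from 5596109), of which all those tested rose. On 6p, TRIM10, TRIM15 and TRIM26 rose, TRIM27, TRIM31, TRIM38 and TRIM39 did not pass and TRIM40 had 1 read in each group. TRIM38 (from 25962802) and TRIM27 (from 28903002) lie apart from the others, which start at 30102897 or beyond. TRIM10 and TRIM15 are neighbours with log2 fold changes of 1.12 and 0.998.

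Relatives that carry other names were measured beside the family. PML, which organises the nuclear bodies of that name and is known to be induced by interferon and p53, had 1297, 1237 and 1171 normalized counts in the CPT-11 samples and 545, 729.7 and 709 in the DMSO samples (log2 fold change 0.91, SE 0.11, limma adjusted p = 3.77e-06). TRIML2, a TRIM-like gene, had 516, 561 and 549 against 106, 116 and 104 (log2 fold change 2.31, SE 0.13, limma adjusted p = 1.97e-10). MID1, a microtubule-bound ligase, had 802, 925 and 951 against 1310.0, 1209 and 1247 (log2 fold change -0.49, SE 0.10), and its paralogue MID2 did not pass (log2 fold change -0.08). Groups did not overlap for PML, TRIML2 and MID1. MEFV averaged below 10 normalized counts and was not tested.

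Among all tested genes, 24.3% rose and 25.1% fell, and the lists below were chosen with earlier results of these data known. Of 14 genes listed as ubiquitin-conjugating enzymes, 2 rose, 7 fell and 5 did not pass, with a median log2 fold change of -0.23. Their median span was 74.6 kb, but the list mixes long genes with shorter ones such as UBE2L6 and UBE2D1. Tested protein-coding genes had a median of -0.23 at 50 kb or more and of 0.12 below. The part of span in the median of the list was not tested. UBE2L6, the conjugating enzyme of ISG15, had 780.3, 818 and 756 normalized counts after CPT-11 and 435, 508 and 457 with DMSO (log2 fold change 0.75, limma adjusted p = 1.37e-05). UBE2E2 had 96.1, 90.2 and 87.3 against 255, 277 and 254 (log2 fold change -1.51, limma adjusted p = 1.79e-07). Interferon-stimulated genes outside the family were split, with 14 higher, 3 lower and 12 not passing of 29 tested and a median of 0.28, led by ISG15 (log2 fold change 1.70) and IFI6 (1.61). All 29 tested p53 target genes rose, with a median of 1.38, led by TP53I3 (3.79) and CDKN1A (2.79). Beside these, the interferon-inducible TRIM genes had a median of 0.50 and the p53-linked ones of 0.32, or 0.37 and 0.16 without TRIM22. The p53-linked list also holds genes that bind or act on p53, so it differs in kind from the list of p53 targets.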

How the data were processed

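RNA of 3 CPT-11 and 3 DMSO samples was extracted with Trizol, per the labels' protocols. The tools named in the submitters' processing notes are DESeq2 1.22.1 and edgeR 3.24.3, HISAT2 2.1.0, StringTie 1.3.4d and featureCounts 1.6.2, and fastp 0.19.3, with the build GRCh38; which tool made which value is not stated. The authors deposited a normalized signal per gene and sample, called the normalized count here. In every library 100% of values were whole multiples, within 0.001, of 1 step, which is what counts of reads scaled by a size factor give. The authors also deposited group means, a log2 fold change, a p-value and an adjusted p-value for each gene, and a gene length, per the file headers. Gene starts and ends equalled those of GENCODE release 29 for all 30560 genes.

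Genes averaging 10 normalized counts or more over the 6 samples were tested with limma 3.58.1 (R 4.3.3, mean-variance trend) on log2(normalized count + 1), which understates changes of low genes. Fold changes are CPT-11 over DMSO. TRIM67 and TRIM31 averaged below 10 in the DMSO group and entered through the CPT-11 group. edgeR 4.0.16 and DESeq2 1.42.0 on recovered reads were alternatives. The limma script was tested on simulated data. A floor of 3 reads equals 0.166 to 0.195 CPM and covers counting error only. The members and lists were chosen with earlier results of these data known. Values in every sample are given for the 8 members with the highest and the 8 with the lowest fold changes, for tested members of the linked lists and for the 3 with most counts per kilobase; for genes outside the family, the 2 most changed of each list were named, plus PML, MID1, MID2 and MEFV.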

Additional observations from a re-analysis of the deposited data

How the results depend on the processing

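Of the 33 members called, 27 kept call and direction under every alternative with a test that gave a value; the 6 that lost it at least once were TRIM11, TRIM13, TRIM16, TRIM23, TRIM24 and TRIM33. Over the alternatives, 29 to 34 members were called; edgeR and DESeq2 on recovered reads each called 33. With no filter, 34 were called, 24 higher and 10 lower. Scaled without mitochondrial genes, 34 were called, 25 higher and 9 lower. Both counts include a member outside the filter used above, to which TRIM55, with a mean of 9.94, lay closest. Leaving out each sample in turn gave 30 to 34 members called, 20 to 24 higher and 9 to 11 lower, and 6881 to 7971 genes in all; TRIM22 ran from 3.07 to 3.45. Same-numbered samples did not deviate together (r = -0.23, -0.01 and -0.10), so the numbers were not taken to pair the samples. With the replicate block, 29 members were called, 21 higher and 8 lower, with 6812 genes in all, and TRIM11 (adjusted p = 0.0794), TRIM13 (0.0641), TRIM24 (0.0724) and TRIM33 (0.0534) did not pass; with 3 pairs, no CPT-11 sample correlated best with its own number. Scaling moved the median of all genes by at most 0.08 on the log2 scale.

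The interferon-inducible median was 0.37 with the filter at a mean of 50, 0.35 to 0.55 leaving out a sample and 0.34 without both libraries numbered 1, an alternative chosen after seeing the data. The median of the other members was 0.15 with that filter, 0.41 with libraries scaled without mitochondrial genes, 0.18 to 0.36 leaving out a sample, 0.12 without both libraries numbered 1 and 0.19 with the span trend removed. The p53-linked median ran from 0.25 to 0.37 leaving out a sample. It was 0.20 with the span trend removed, and the interferon-inducible median was then 0.47. Signs also turned for members that were not called. Without both libraries numbered 1, TRIM74 had -0.048, TRIM7 -0.15, TRIM52 -0.019 and TRIM28 -0.11. Scaled by library total alone, TRIM68 had 0.015; scaled without mitochondrial genes, TRIM68 had 0.064 and TRIM41 0.019. Leaving out a sample, TRIM7 ran from -0.083 to 0.30, TRIM38 from -0.017 to 0.12, TRIM16L from -0.044 to 0.11, TRIM28 from -0.081 to 0.13 and TRIM68 from -0.12 to 0.10. With the span trend removed, the called members TRIM44 (0.033) and TRIM2 (0.10) turned. The causes were not tested. At this depth, members with few reads, such as TRIM31 and TRIM67, have SEs above 0.5.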

Other observations

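Of 5 rows with TRIM names that are not protein coding, TRIM52-AS1, a processed transcript, was the only one above the filter. It had 50.3, 60.8 and 50.5 normalized counts in the CPT-11 samples and 106, 107 and 126 in the DMSO samples, with no overlap (log2 fold change -1.06, SE 0.19, limma adjusted p = 0.0002). TRIM52 itself, with 204, 198 and 170.4 normalized counts in the CPT-11 samples and 176, 175 and 197 in the DMSO samples, did not pass (log2 fold change 0.06), and 28.5% of its exonic bases lie in another gene. The difference between the 2 genes was not tested.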
